A study of Mus musculus with 3 samples.

Results

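The 10 genes described here act in the folding of proteins inside the endoplasmic reticulum and in the unfolded protein response. They were selected by symbol (Hspa5, Hsp90b1, Xbp1, Calr, Pdia3, Pdia4, Pdia6, Dnajb9, Sdf2l1 and Herpud1) and are 10 of the 32285 genes in the deposited matrices. They were followed in E14 cells, an established line of mouse embryonic stem cells (129/Ola background), cultured in serum with leukemia inhibitory factor. Treatment started 24 h after seeding. One culture received 250 µg/mL cycloheximide, which stops translation elongation, for 3 h, and another received the same dose for 6 h. Cycloheximide was given in 0.007% ethanol, and the control received ethanol alone for 6 h. Each group was 1 library made with 10x Genomics 3' chemistry from frozen and thawed cells, so no difference below has a replicate check and none was tested. The 3 h library also had no ethanol control of its own duration.

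Cells were barcodes with at least 15000 unique molecular identifiers (UMIs, each standing for 1 captured RNA molecule) and 1 to 20% mitochondrial UMIs. There were 2187 in the control, 1739 after 3 h and 2554 after 6 h, with a median of 43160, 51726 and 46200 UMIs per cell. Between 1 and 3 barcodes were shared by any pair of libraries. The mitochondrial share of UMIs was 4.57% in the control, 3.51% after 3 h and 2.94% after 6 h. All 8 pluripotency markers examined were above 10 counts per 1000000 UMIs (CPM) on average, while none of 9 fibroblast markers and none of 7 two-cell-like markers was. Of 10 primitive endoderm markers, Lama1 and Sparc were, and the summed level of that list was 180 CPM in the control, 180 CPM after 3 h and 179 CPM after 6 h. Fibroblast markers summed to between 5.59 and 6.86 CPM, with Col3a1, Lum and Postn at 0 UMIs in every library.

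Proteins that enter the endoplasmic reticulum are folded by chaperones, which bind unfolded chains, and by disulfide isomerases, which form and rearrange disulfide bonds. When unfolded proteins accumulate there, 3 sensors of the membrane, ATF6, IRE1 and PERK, start the unfolded protein response. ATF6 and the spliced form of XBP1 raise chaperone genes through endoplasmic reticulum stress elements in their promoters, and PERK slows translation and favours ATF4. Counts per gene do not separate spliced from unspliced Xbp1 RNA.

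The endoplasmic reticulum stress element, ERSE, consists of the block CCAAT, 9 bases and the block CCACG, and its variant ERSE-II of ATTGG, 1 base and CCACG. Both strands of the RefSeq promoter windows were searched, from 250 bases before to 50 after each start on GRCm38.p6. All 10 genes had 1 window each. ERSE letters were found in the windows of 4 of the 10 genes (Hspa5, Hsp90b1, Calr and Pdia6) and in 0.119% of all 32851 windows. ERSE-II letters were found in Herpud1 alone among them, and in 0.0365% of all windows. The stretches that carry these letters are printed 5′ to 3′ on the strand of the gene, with the ERSE blocks or the ERSE-II in capitals, to show which blocks are shared and in which orientation.
Hspa5 (chr2:34772020-34772048, plus strand): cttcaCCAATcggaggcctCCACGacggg
Hsp90b1 (chr10:86705510-86705686, minus strand): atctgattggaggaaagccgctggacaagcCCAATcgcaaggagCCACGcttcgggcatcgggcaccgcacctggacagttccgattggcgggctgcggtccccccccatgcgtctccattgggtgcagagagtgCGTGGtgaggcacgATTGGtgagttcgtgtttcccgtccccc
Calr (chr8:84847045-84847123, minus strand): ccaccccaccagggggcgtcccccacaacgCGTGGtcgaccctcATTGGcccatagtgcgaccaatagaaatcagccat
Pdia6 (chr12:17266461-17266539, plus strand): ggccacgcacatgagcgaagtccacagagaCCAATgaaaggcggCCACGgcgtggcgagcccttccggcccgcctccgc
Herpud1 (chr8:94386347-94386417, plus strand): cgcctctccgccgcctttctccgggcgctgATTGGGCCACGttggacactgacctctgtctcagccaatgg

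Hsp90b1 held ERSE letters in both orientations, starting 212 and 107 bases before its RefSeq start. Calr held them on the opposite strand, from 162 to 144 bases before the start. In Hspa5 they lay 65 to 47 bases before the RefSeq start, inside the span that GENCODE M21 gives the gene, which begins 120 bases further upstream. In Pdia6 they lay 98 to 80 bases before the start, and the ERSE-II of Herpud1 lay 52 to 42 bases before it. Apart from these pairs, the single blocks were common. CCAAT stood in 37.4% of all windows and in 9 of the 10 genes, and CCACG in 32.8% of all windows and in 8 of the 10. No window of the 10 held the letters of the XBP1 element (UPRE, TGACGTGG, in 0.676% of all windows), of the ATF4 element (CARE, TGATGNAAT, in 0.965%) or of the heat shock element (HSE, which is GAA, 2 bases, TTC, 2 bases and GAA, in 0.603%). A match describes the letters of a window and shows no binding.

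**Figure D1:**
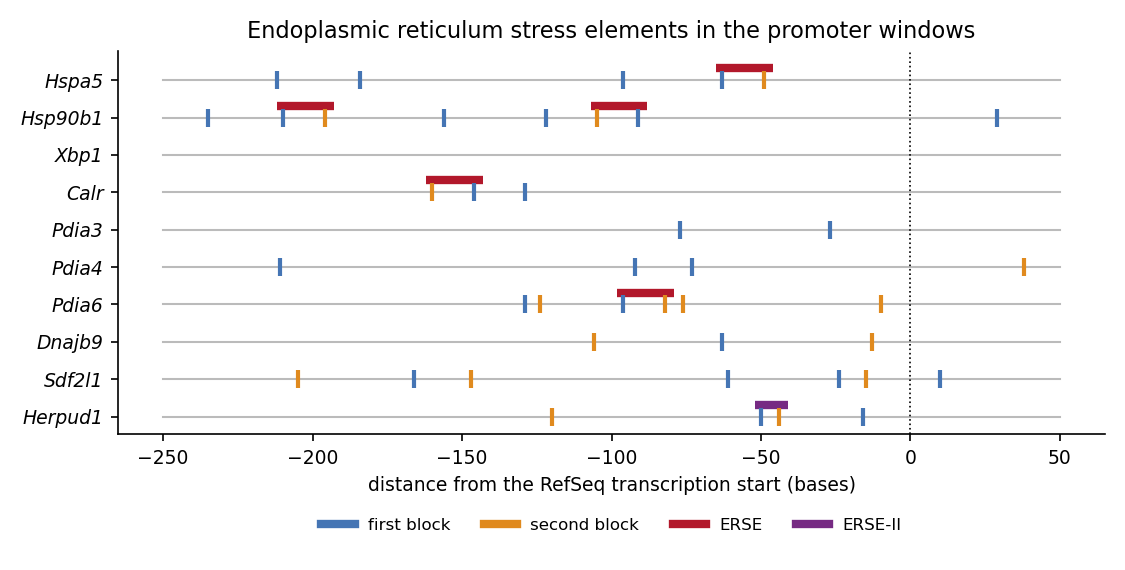
Position of stress element letters in the promoter windows of the 10 genes, with the distance from the RefSeq start in bases on the horizontal axis. Bars mark ERSE (red) and ERSE-II (purple), and ticks mark single CCAAT blocks (first block, blue) and CCACG blocks (second block, orange) on either strand. Full elements stand in 5 of the 10 windows, and the Xbp1 window holds neither block.

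As a group, the 10 genes were lower after cycloheximide. Their summed level was 2223 CPM in the control (95% exact Poisson interval 2215 to 2232), 1629 CPM after 3 h (1622 to 1637) and 1396 CPM after 6 h (1390 to 1402). The summed level was therefore 0.733 times the control after 3 h and 0.628 times after 6 h. Without Calr and Hsp90b1, the members with the most UMIs, it was 0.689 and 0.581 times the control. The median log2 ratio of the 10 genes was -0.51 after 3 h and -0.67 after 6 h. Over all 7608 genes averaging 10 CPM or more, the median was 0.11 after 3 h and 0.17 after 6 h. All intervals here cover counting error only.

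At 3 h, 3 of the 10 genes (Hspa5, Xbp1 and Herpud1) were lower by at least 1.5-fold, where 2.13% of all genes were. At 6 h, 5 of the 10 were (Hspa5, Hsp90b1, Pdia6, Xbp1 and Herpud1), where 7.79% of all genes were. None of the 10 was higher by that fold, after 3 h (13.9% of all genes) or after 6 h (22.1% of all genes). From 3 h to 6 h, only Xbp1 was lower by 1.5-fold (2.52% of all genes) and none was higher (1.74%). The gene nearest above the line after 6 h was Pdia3, at -0.58 on the log2 scale, and nearest below it Pdia6, at -0.76. Dnajb9, with a mean of 9.78 CPM, was the 1 member below the floor of 10 CPM and is counted among the 10. Both comparisons with the control share the same control library.

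The scaling moves all of these ratios together. With TMM factors, which assume that most genes do not change, the median of all genes was -0.063 after 3 h and -0.12 after 6 h. Genes above 0 then made up 42.6% and 40.5% of all genes, against 64.1% at both times by CPM. The median of the 10 genes became -0.69 after 3 h and -0.96 after 6 h, and 6 and 9 of them were lower by 1.5-fold, where 5.23% and 16.9% of all genes were. By mean UMIs per cell, which does not scale to library totals, 89.1% of all genes were above 0 after 3 h and 71.6% after 6 h. The median of the 10 genes was then -0.24 after 3 h and -0.56 after 6 h. On that scale 2 of them were lower by 1.5-fold after 3 h, where 0.775% of all genes were, and 5 after 6 h, where 5.49% were. Since each of these scalings shifts all genes equally, the distance between the 10 genes and all genes stayed at -0.63 after 3 h and -0.84 after 6 h.

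**Figure D2:**
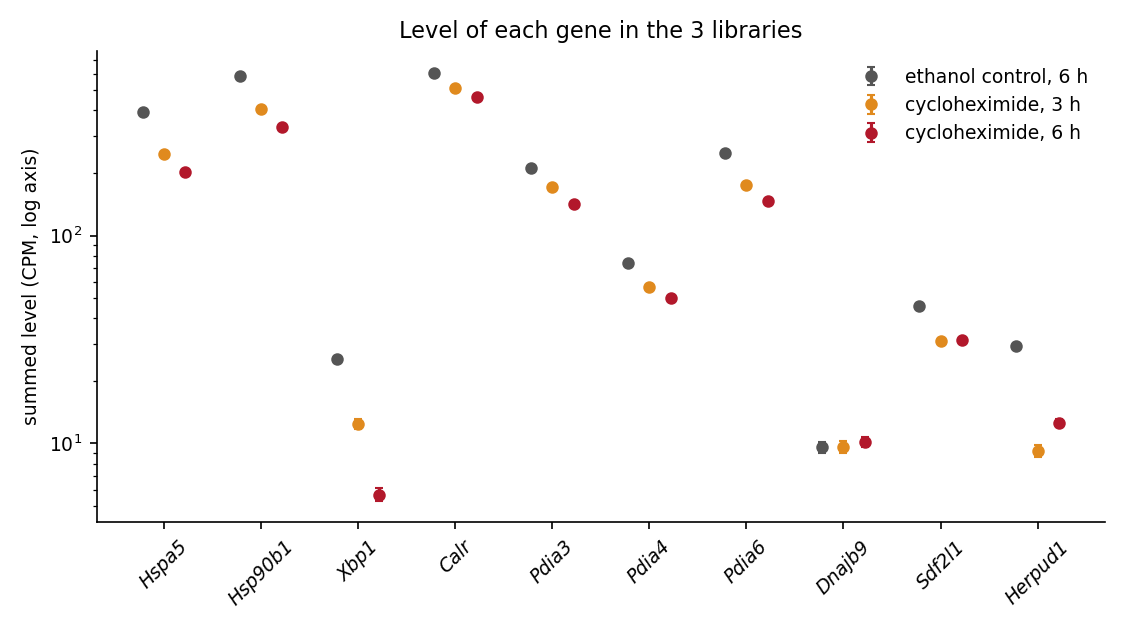
Summed CPM of each gene in each library on a log axis, with 95% exact Poisson intervals for counting error as bars, mostly smaller than the points. The control point is the highest for every gene but Dnajb9, Xbp1 keeps descending to 5.68 CPM after 6 h, and Herpud1 and Sdf2l1 do not descend further between 3 h and 6 h.

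Among the chaperones, Hspa5 encodes BiP, the Hsp70 of the endoplasmic reticulum, which also holds the 3 stress sensors inactive. It had 391 CPM in the control (387 to 395), 247 CPM after 3 h (244 to 250) and 203 CPM after 6 h (201 to 205). The 3 intervals do not overlap. Its log2 ratio was -0.66 after 3 h (-0.68 to -0.64) and -0.95 after 6 h (-0.97 to -0.93), so the level after 6 h was 0.519 times the control. By mean UMIs per cell the 3 h ratio was -0.39, within 1.5-fold. Hspa5 lies on chromosome 2 (ENSMUSG00000026864, 34771970 to 34777547 on GRCm38, plus strand).

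Hsp90b1 encodes GRP94, the Hsp90 of the endoplasmic reticulum, and had 583 CPM in the control (579 to 588), 404 CPM after 3 h (401 to 408) and 334 CPM after 6 h (331 to 337). Its log2 ratio was -0.53 after 3 h and -0.81 after 6 h. Calr encodes calreticulin, a calcium-binding lectin that holds newly glycosylated proteins. Calr had 606 CPM in the control (601 to 610), 512 CPM after 3 h (508 to 517) and 462 CPM after 6 h (458 to 465). It had the smallest difference from the control among the 9 genes above 10 CPM, with log2 ratios of -0.24 and -0.39. At 3 h its sign depended on the scaling, with 0.029 by mean UMIs per cell.

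The disulfide isomerases were lower in the same order of libraries, with no overlap of intervals. Pdia6 had 249 CPM in the control, 176 CPM after 3 h and 146 CPM after 6 h, and its log2 ratios were -0.50 and -0.76. Pdia3, which works on the glycoproteins held by calreticulin, had 211, 170 and 142 CPM in that order. Its ratio was -0.31 after 3 h, which was only -0.038 by mean UMIs per cell, and -0.58 after 6 h. Pdia4 had 73.5 CPM in the control, 56.6 CPM after 3 h and 50.1 CPM after 6 h, with ratios of -0.38 and -0.55.

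The co-factors of BiP differed from each other. Sdf2l1, which binds BiP together with its co-chaperones, had 46.1 CPM in the control (44.8 to 47.3), 31.0 CPM after 3 h (29.98 to 32.10) and 31.3 CPM after 6 h (30.4 to 32.2). It was lower than the control at both times, and its intervals after 3 h and 6 h overlap. Dnajb9 encodes ERdj4, a co-chaperone of BiP and a target of XBP1. It had 9.58 CPM in the control (9.02 to 10.18), 9.62 CPM after 3 h (9.04 to 10.23) and 10.15 CPM after 6 h (9.63 to 10.69). These 3 intervals overlap, and the log2 ratio after 6 h was 0.08 (-0.03 to 0.20). With TMM factors, described above, the ratios of Dnajb9 were -0.17 after 3 h and -0.20 after 6 h.

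Xbp1 and Herpud1 had the lowest ratios. Xbp1, the transcription factor whose RNA is spliced by IRE1, had 25.4 CPM in the control (24.5 to 26.3), 12.5 CPM after 3 h (11.8 to 13.1) and 5.68 CPM after 6 h (5.29 to 6.09). Its log2 ratio was -1.03 after 3 h (-1.12 to -0.93) and -2.16 after 6 h (-2.27 to -2.05), leaving 0.224 times the control level. Between 3 h and 6 h the level was lower again, at 0.456 times that after 3 h.

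Herpud1 encodes a membrane protein that assembles the machinery for degrading misfolded proteins, and it took another course. It had 29.5 CPM in the control (28.5 to 30.5), 9.21 CPM after 3 h (8.64 to 9.80) and 12.6 CPM after 6 h (12.00 to 13.18). Its log2 ratio was -1.68 after 3 h (-1.78 to -1.58), the lowest of the 10 genes at that time, and -1.23 after 6 h (-1.31 to -1.15). The 6 h level lay above the 3 h level by 0.45 on the log2 scale (0.34 to 0.56), and by 0.29 in mean UMIs per cell. Among the 9 genes above 10 CPM it was the one with an interval wholly above 0 between these times.

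Barcodes with 10 to 100 UMIs hold mainly RNA released from other cells and give the level of free RNA. There, Hspa5 had 299 CPM in the control, 192 CPM after 3 h and 129 CPM after 6 h. Xbp1 had 18.3, 9.99 and 4.85 CPM in free RNA, and Herpud1 20.6, 8.78 and 8.93 CPM. The summed level of the 10 genes in free RNA was 1670, 1181 and 916 CPM in the same order. The summed level in free RNA was thus below that of the cells in each library, and it was lower in the same order.

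**Figure D3:**
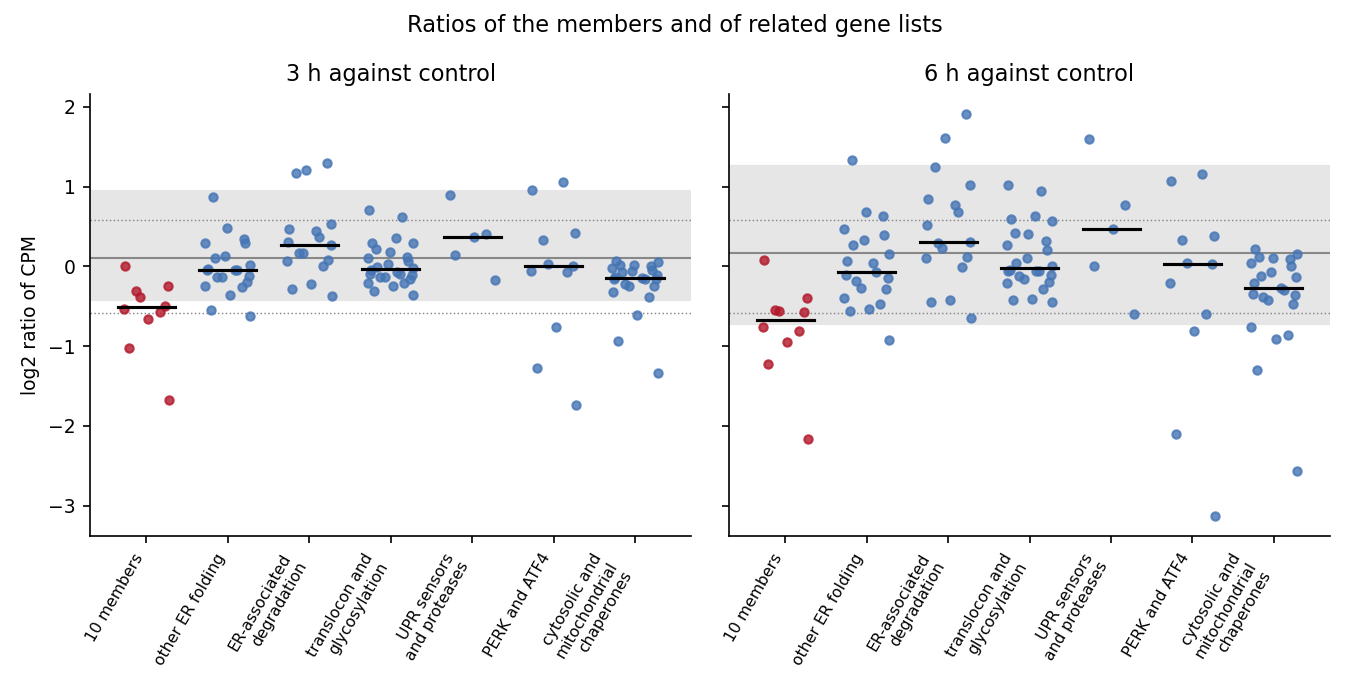
Log2 ratio of CPM against the control after 3 h and 6 h, with 1 point per gene for the 10 members (red) and for 6 lists of related genes above 10 CPM (blue), and a black line at each median. The grey band spans the 5th to 95th percentile of all 7608 genes around their median, and dotted lines mark 1.5-fold. The members' median lies below those of the other lists at both times.

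By its median, the rest of the folding machinery of the endoplasmic reticulum lay nearer to all genes than the members did, a difference that was not tested. Of 26 other folding factors, 21 were above 10 CPM. At 6 h, 1 of these 21 was lower and 3 were higher by 1.5-fold, where 7.79% of all genes were lower and 22.1% higher, and the list's median was -0.07, which was 0.23 below that of all genes. Except where said, the genes named from this and the following lists were chosen for lying past 1.5-fold after 6 h. Dnajc1, a membrane-bound co-chaperone of BiP, had 17.0 CPM in the control and 43.0 CPM after 6 h, a log2 ratio of 1.33 (1.26 to 1.41). The membrane thioredoxins Tmx1 and Tmx3 had ratios of 0.68 and 0.63 after 6 h. Of the 21 factors, 10 lay above the control after 6 h and 11 below. Over all genes, 64.1% lay above and 35.9% below. Some factors were lower as the members were, and 3 of them are named here after their values were seen. Hyou1, the 1 lower by 1.5-fold, had -0.92 after 6 h, and Manf and Canx had -0.56 and -0.53. Of 27 genes for translocation and glycosylation, 26 were above 10 CPM, with 4 higher and 0 lower by 1.5-fold after 6 h and a median of -0.01, below the 0.17 of all genes. The translocation factor Sec62 went from 122 CPM to 200 CPM after 3 h and 247 CPM after 6 h. Srprb, a subunit of the signal recognition particle receptor, and Spcs2, a subunit of the signal peptidase, had 6 h ratios of 0.95 and 0.63.

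Genes of endoplasmic reticulum-associated degradation had a median slightly above that of all genes. Of 17 genes above 10 CPM, from a list of 20, 7 were higher and 1 was lower by 1.5-fold after 6 h, against 22.1% and 7.79% of all genes. Their median was 0.31 after 6 h, 0.14 above that of all genes. Ube2g2, a ubiquitin-conjugating enzyme of this pathway, had 13.0 CPM in the control, 31.9 CPM after 3 h and 49.1 CPM after 6 h. Selenos, a selenoprotein that recruits the p97 ATPase, had 49.7, 112 and 152 CPM in that order, a log2 ratio of 1.62 after 6 h (1.57 to 1.66). Faf2, another p97 partner at the membrane, had a ratio of 1.25 after 6 h. Below the control after 6 h, as Herpud1 was, stood 4 of the 17, where 35.9% of all genes were. These 4 were named after their values were seen. Edem1, a lectin of this pathway, had -0.65, and Vcp, the p97 ATPase, had -0.45. Sel1l, a subunit of the membrane ubiquitin ligase, had -0.42. Its partner Syvn1 had -0.01, with an interval that includes 0 (-0.12 to 0.11), and 0.17 after 3 h.

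Of the measured sensor and protease genes, 4 lay above the control after 6 h and 1 below. Over all genes, 64.1% lay above and 35.9% below. Among these 4, Mbtps2 had 0.003, with an interval that includes 0 (-0.10 to 0.11). Genes of the PERK branch went both ways. Of 10 sensor and protease genes, 5 were above 10 CPM, with a median of 0.47 after 6 h, against 0.17 for all genes. The genes of IRE1 and PERK, Ern1 and Eif2ak3, were not among these 5. By 1.5-fold after 6 h, 2 of the 5 were higher and 1 was lower, where 22.1% and 7.79% of all genes were. Atf6 had 16.2 CPM in the control, 21.5 CPM after 3 h and 27.7 CPM after 6 h, a log2 ratio of 0.77 after 6 h (0.69 to 0.86). Mbtps1, the protease that cleaves ATF6, had a 6 h ratio of -0.59, and its 3 h ratio of -0.16 became 0.11 by mean UMIs per cell. Of 15 genes of the PERK and ATF4 branch, 11 were above 10 CPM. After 6 h, 2 of these 11 were higher and 4 lower by 1.5-fold, against 22.1% and 7.79% of all genes. Their median was 0.04, against 0.17 for all genes. Atf4 went from 242 CPM to 471 CPM after 3 h and 509 CPM after 6 h, and Ddit3, which encodes CHOP, had a 6 h ratio of 1.15. Trib3, a target of ATF4 and CHOP, went the other way, from 46.9 CPM to 19.3 and 10.9 CPM. The stress-induced Sesn2 had a 6 h ratio of -0.81. Ppp1r15b, a regulator of the phosphatase that reverses PERK signalling, had -0.60 after 6 h, and its 3 h ratio of -0.07 became 0.20 by mean UMIs per cell.

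Chaperones of the cytosol and mitochondria had a lower median than all genes, though less so than the members. Of 23 genes above 10 CPM, from a list of 26, 5 were lower and 0 higher by 1.5-fold after 6 h, against 7.79% and 22.1% of all genes, and their median was -0.27, 0.43 below that of all genes. The difference between this list and the members was not tested. Hspa8, the constitutive cytosolic relative of BiP, had 2835 CPM in the control, 1125 CPM after 3 h and 477 CPM after 6 h, a log2 ratio of -2.57 after 6 h. Dnajb1 and Hspd1 had 6 h ratios of -1.30 and -0.90.

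Levels in single cells were compared after each cell had been thinned at random to 15000 UMIs, which kept every cell. The summed UMIs of the 10 genes had a median of 32 per cell in the control (quartiles 25 and 41), 24 after 3 h (18 and 31) and 21 after 6 h (16 and 26). The upper quartile after 6 h thus lay 1 UMI above the lower quartile of the control.

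**Figure D4:**
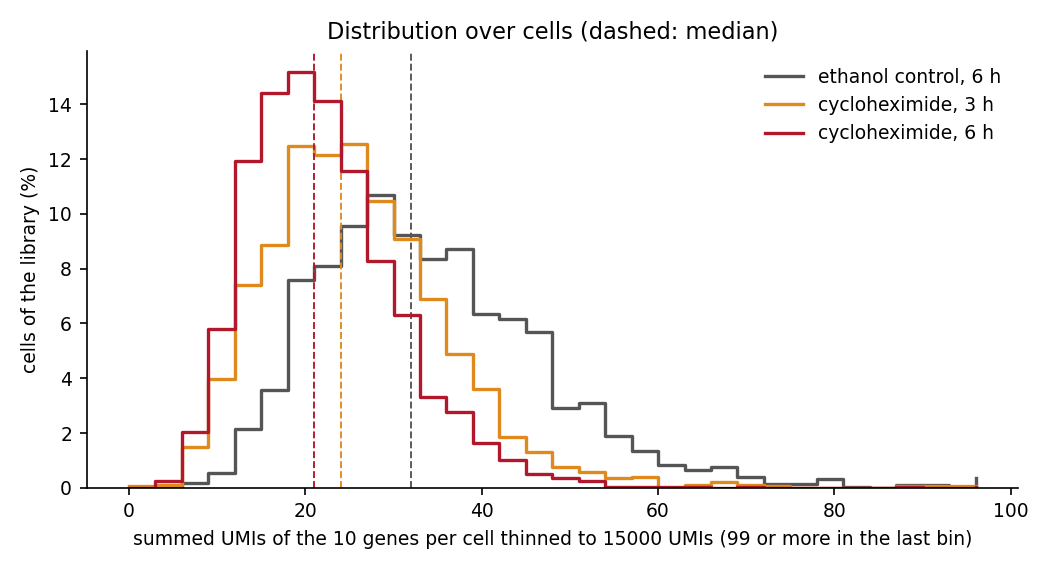
Share of cells of each library by the summed UMIs of the 10 genes, after thinning every cell to 15000 UMIs, with dashed lines at the medians of 32, 24 and 21 UMIs. Each library has 1 broad peak, and the peaks shift to the left from the control to 3 h and 6 h.

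The difference was present in each of 3 ranges of depth. Among cells with under 35000 UMIs the mean thinned sum was 36.3 in 616 control cells, 29.8 in 337 cells after 3 h and 24.9 in 607 cells after 6 h. Between 35000 and 60000 UMIs the means were 33.0, 24.6 and 20.8 in the same order of libraries. Among cells with at least 60000 UMIs it was 33.4 in 598 control cells, 24.3 in 660 cells after 3 h and 20.7 in 750 cells after 6 h. It was also present at similar mitochondrial shares. Control cells up to their library's median share (median 3.89%) had a mean of 34.5, and cells after 3 h above theirs (median 4.11%) had 26.9. Those after 6 h above theirs (median 3.35%) had 22.6.

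For the sparse members Xbp1 and Herpud1, the share of cells with at least 1 UMI followed the level. A Xbp1 UMI was found in 30.2% of thinned control cells (95% exact Clopper-Pearson interval 28.3 to 32.2), 15.9% after 3 h (14.2 to 17.7) and 7.95% after 6 h (6.93 to 9.07). The unthinned shares for Xbp1 were 62.9%, 46.5% and 25.5%. Herpud1 was found in 33.2% of control cells (31.2 to 35.2), 13.2% after 3 h (11.7 to 14.9) and 17.1% after 6 h (15.7 to 18.6), and unthinned in 67.3%, 39.3% and 45.3%. Since free RNA held both transcripts, a UMI in a barcode need not come from the cell itself. Dnajb9 was found in 14.4%, 14.1% and 13.5% of thinned cells, with overlapping intervals, and unthinned in 36.0%, 41.3% and 39.5%.

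Cell-to-cell variability was expressed as the excess squared coefficient of variation, that is, the variance less the mean, divided by the square of the mean, and 0 for counting noise alone. Over 6046 genes averaging 0.2 or more UMIs per cell after thinning in each library, the median was 0.0743 in the control, 0.0746 after 3 h and 0.0792 after 6 h. Hspa5 lay at 0.463 in the control, 0.335 after 3 h and 0.246 after 6 h. It was thus more uneven than the typical gene in each library, and least so after 6 h. Hsp90b1 stayed between 0.167 and 0.174, Calr between 0.139 and 0.183, and Pdia6 between 0.100 and 0.123.

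Across cells, the members with the clearest shared variation were the 3 abundant chaperones. In the control, Pearson's r of log-transformed thinned counts was 0.48 for Hspa5 with Hsp90b1, 0.45 for Hsp90b1 with Calr and 0.43 for Hspa5 with Calr. At 3 h the same pairs had 0.36, 0.38 and 0.37, and after 6 h 0.26, 0.28 and 0.25. The levels of these genes were also lower in these libraries, and the part of counting noise in the lower r was not tested. Pdia3, Pdia4 and Pdia6 had 0.26, 0.27 and 0.30 with the sum of the other 9 genes in the control. Xbp1 had 0.10, Dnajb9 0.06 and Herpud1 0.03, weak values at counts this sparse. Over the 45 pairs the median was 0.06 in the control, 0.06 after 3 h and 0.04 after 6 h. Cells of a library share its preparation and a fixed depth, so these values describe the libraries.

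**Figure D5:**
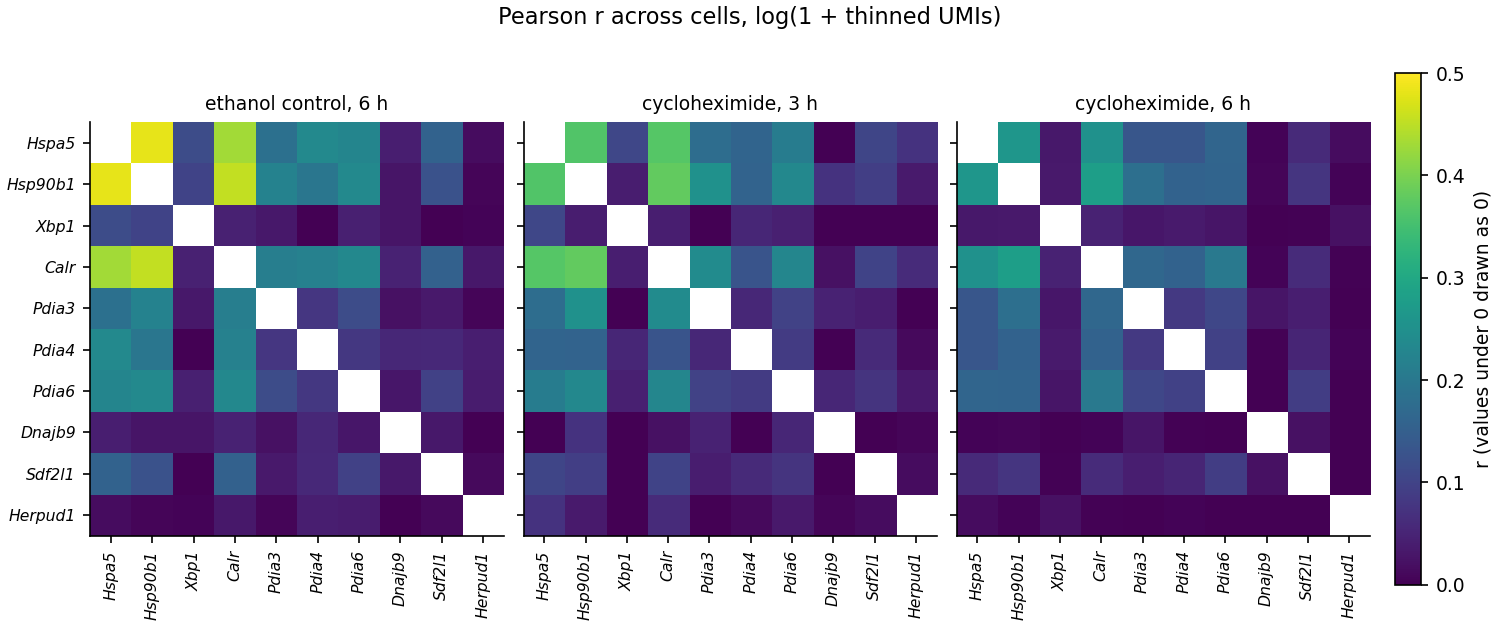
Pearson's r across cells for each pair of the 10 genes in each library, from log(1 + UMIs) after thinning to 15000 UMIs, on a colour scale from 0 to 0.5 with negative values drawn as 0. The block of Hspa5, Hsp90b1 and Calr is brightest in all 3 libraries and dims from 0.43 to 0.48 in the control to 0.25 to 0.28 after 6 h, while Xbp1, Dnajb9 and Herpud1 stay dark.

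The genes outside the list that varied most like the sum of the 10 genes among control cells were ranked by Pearson's r over 3795 genes averaging 0.5 or more UMIs per control cell after thinning. Manf, a secreted protein of the endoplasmic reticulum that is raised in the unfolded protein response, came first with 0.40 in the control, 0.32 after 3 h and 0.23 after 6 h. Canx, the membrane-bound relative of calreticulin, followed with 0.25, 0.23 and 0.18. Next were Atp2a2, the calcium pump of the endoplasmic reticulum (0.23 in the control), Akap12 (0.23), Ccne1 (0.22), Dnajc3, a co-chaperone of BiP (0.22), and Rrbp1, a membrane protein that binds ribosomes (0.20). Sfpq, Uhrf1 and Hspa8 completed the 10 genes with 0.19, 0.18 and 0.18. For Hspa8 the value was 0.11 after 3 h and -0.09 after 6 h. For comparison, the median over the 3795 genes was 0.02 and the 99th percentile 0.15.

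One control cell stood apart. Its thinned sum over the 10 genes was 273 UMIs, and the next highest control cell had 145. It held 91 UMIs of Hspa5, where the next highest control cell had 50, 29 of Herpud1, where the next had 4, and 21 of Pdia4, where the next had 7. It also held 41 UMIs of Manf and 10 of Creld2, against library means of 4.03 and 0.708. Ddit3 had 2 UMIs in it and Atf4 had 13, against library means of 0.2 and 3.59. Xbp1 and Trib3 had 0, against library means of 0.384 and 0.686, and most thinned control cells had 0 of Xbp1. The cell had 25342 UMIs in all and a mitochondrial share of 4.32%. Without it, the excess squared coefficient of variation of Herpud1 in the control was 0.354 in place of 2.14, and that of Hspa5 was 0.377 in place of 0.463. No cell after 3 h or 6 h held more than 3 thinned UMIs of Herpud1.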

How the data were processed

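For every barcode, the deposited matrices hold UMI counts without normalization, made with Cell Ranger 4.0.0 on mm10, per the submitters' processing notes; cells had not been called in these files, and how reads from overlapping genes were counted is not given in the sources used here. The deposited symbols and barcodes served as names. Of 32285 gene identifiers, 32158 matched GENCODE M21 on GRCm38, whose coordinates are given for genes; promoter sequences are those of RefSeq on GRCm38.p6.

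Counts were summed over the selected cells (111447486 UMIs in the control, 106842407 at 3 h, 140321458 at 6 h) and expressed as CPM. Log2 ratios used a prior of 0.5 counts. Intervals are 95% exact Poisson, conditional binomial or Clopper-Pearson intervals. With 1 library per group no test was made. Doublets were not removed; an alternative left out barcodes above 2 times the median UMIs. Symbols shared by several identifiers were represented by the most abundant one.

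The members and lists were chosen with earlier results of these data known. Named genes were all members and, from each other list, up to 3 genes per direction of at least 20 CPM, past 1.5-fold at 6 h, with an interval excluding 0 and the same sign at 3 h. For likeness across cells, the 10 highest correlations in the control were named. Alternatives were TMM factors (edgeR 4.0.16), mean UMIs per cell, other UMI and mitochondrial limits, free RNA subtraction, another prior, fold, floor and thinning. Ratios, intervals and thinning were tested on simulated data. A planned look at protein sequences was not made. Python 3.11.15, numpy 2.4.6, scipy 1.17.1, pandas 2.3.3, matplotlib 3.10.9 and R 4.3.3 were used.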

Additional observations from a re-analysis of the deposited data

How the results depend on the processing

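The median log2 ratio of the 10 genes kept its sign under each alternative tried. At 3 h against the control it was -0.69 with TMM factors, -0.24 by mean UMIs per cell and -0.48 with no mitochondrial limit, against -0.51. At 6 h it was -0.96 with TMM factors, -0.56 by mean UMIs per cell and -0.76 without Dnajb9, an alternative chosen after seeing the data, against -0.67. From 3 h to 6 h it was -0.33 with TMM factors, -0.38 by mean UMIs per cell and -0.26 without Dnajb9, against -0.22. The number of genes lower by 1.5-fold was 6 at 3 h and 9 at 6 h with TMM factors, where 5.23% and 16.9% of all genes were lower, against 3 and 5. By mean UMIs per cell it was 2 and 5, where 0.775% and 5.49% of all genes were lower. With a fold of 2 it was 2 at each time, namely Xbp1 and Herpud1. The share of all genes lower by 2-fold was not computed, so that count has nothing to be set against. Of 300 ratios of single members under alternatives, 10 changed sign. These were 1 of Calr, at 3 h by mean UMIs per cell (0.029), 6 of Dnajb9 and 3 of Sdf2l1, the last between 3 h and 6 h, where its ratio was 0.01. The median of all genes at 6 h was 0.30 with no floor. Without thinning, with counts scaled per cell, the median r over the 45 pairs was 0.14 in the control, 0.13 after 3 h and 0.08 after 6 h. The cause of these shifts was not tested. No paired analysis was possible because each group had 1 library. Counting error is small at these depths, 3 UMIs being worth 0.0214 to 0.0281 CPM. Variation between cultures and library preparations was not measured.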

Other observations

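Other genes whose promoter window holds ERSE letters were examined after the letters had been found in the members. Of 33 such genes outside the list, 8 were above 10 CPM. At 3 h, 0 of these 8 were lower and 1 was higher by 1.5-fold, where 2.13% of all genes were lower and 13.9% higher. At 6 h 1 was lower and 1 was higher, where 7.79% of all genes were lower and 22.1% higher. Their median was 0.10 on the log2 scale after 3 h and 0.07 after 6 h, against 0.11 and 0.17 for all genes. Canx, with -0.35 and -0.53, was among them, as was Creld2, a stress-induced chaperone-like protein, with -0.04 and 0.15. With ERSE-II included, 17 genes were above 10 CPM, of which 0 were lower and 3 higher by 1.5-fold at 3 h. At 6 h 1 of the 17 was lower and 5 were higher. Their median was 0.10 after 3 h and 0.15 after 6 h, close to that of all genes.

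The control cell described above was led by Hspa5 with 91 thinned UMIs and Calr with 58. In the treated libraries, the cell with the highest sum of the 10 genes also held many UMIs of Calr and Hspa5. It held 0 of Herpud1, as most treated cells did. A thinned Herpud1 UMI was found in 13.2% of cells after 3 h and 17.1% after 6 h. At 3 h that cell had 121 thinned UMIs, 55 of them of Calr and 33 of Hspa5, and 0 of Herpud1. At 6 h it had 177, of which 85 were of Calr, 29 of Pdia3 and 26 of Hspa5, with 0 of Herpud1 and 23 of Canx. The 6 h cell had 16023 UMIs in all and a mitochondrial share of 12.3%, against 2.94% in its library.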
